A study of Mus musculus with 16 samples.

Results

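Open chromatin around 10 genes of insulin signalling (Insr, Irs1, Irs2, Pik3r1, Akt2, Foxo1, Foxo3, Igfbp1, Igfbp2 and Ppp1r3b) was described in livers of male and female mice of 2 strains. DNase hypersensitive sites (DHS), stretches where the enzyme DNase I cuts the DNA of nuclei most readily, were taken from 20 kb upstream to 20 kb downstream of each gene. Joining peaks with 1 bp or more in common gave 78 regions at the 10 genes, of 51482 regions in all. The mice were 8 weeks old and belonged to C57BL/6J (B6), the laboratory strain of the reference genome, or CAST/EiJ (CAST), a wild-derived inbred strain. Liver nuclei from 4 groups (male B6, female B6, male CAST and female CAST) were digested with 32 units of DNase I, with 4 libraries per group and 16 in all, and no other treatment or genotype separated the groups. The authors pooled the libraries of each group before calling peaks, so there was 1 list per group, no spread between replicates and no test. Intervals given with single values cover counting error at the peak summit only, not the difference between animals.

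Insulin reaches the liver through the portal vein and binds the insulin receptor, encoded by Insr, which phosphorylates the adaptor proteins IRS1 and IRS2. These recruit PI3-kinase, whose regulatory subunit is encoded by Pik3r1, and the lipid it makes activates the kinase AKT2. AKT2 excludes the transcription factors FOXO1 and FOXO3 from the nucleus, which lowers transcription of fasting genes such as Igfbp1, and it favours glycogen storage, to which Ppp1r3b contributes by targeting protein phosphatase 1 to glycogen. Igfbp1 and Igfbp2 encode secreted proteins that bind insulin-like growth factors.

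The sequences below show the DHS on which the account turns most. They are windows reaching 100 bp to either side of a summit (138 bases for Igfbp1, so as to stop at the gene's start), read 5′ to 3′ from the plus strand of mm9, the B6 reference. Capitals mark a match, on either strand, to TGTTTAC, the core bound by forkhead factors such as FOXO1, or to CAAAACA, the core of insulin response elements. The Igfbp1 promoter window (chr11:7097647-7097784) holds 1 insulin response core, whose first base lies at −103 bp from the start of the gene, and no forkhead core.

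Igfbp1 promoter: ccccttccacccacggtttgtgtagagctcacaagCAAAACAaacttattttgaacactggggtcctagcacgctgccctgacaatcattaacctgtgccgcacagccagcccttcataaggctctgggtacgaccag

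The DHS 30.7 kb from the start of Ppp1r3b (window chr8:36469370-36469570) was the strongest of the 78 regions and holds 1 forkhead core. The DHS 16.9 kb from the start of Foxo3 (window chr10:41979606-41979806) was found in both CAST lists and neither B6 list, and its reference sequence holds 2 insulin response cores and 1 forkhead core. The CAST sequence of that window was not analysed here.

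Ppp1r3b +30.7 kb: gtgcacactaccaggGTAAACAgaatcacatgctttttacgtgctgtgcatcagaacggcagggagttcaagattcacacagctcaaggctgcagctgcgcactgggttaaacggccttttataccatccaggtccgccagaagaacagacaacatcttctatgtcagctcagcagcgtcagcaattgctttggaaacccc

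Foxo3 +16.9 kb: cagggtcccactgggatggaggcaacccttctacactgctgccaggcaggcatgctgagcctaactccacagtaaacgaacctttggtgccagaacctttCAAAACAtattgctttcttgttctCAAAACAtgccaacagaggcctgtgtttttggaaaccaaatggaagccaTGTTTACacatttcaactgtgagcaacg

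Pik3r1 had the B6-only DHS and the widest strain difference in females. These windows lie +77.9 kb (chr13:102460145-102460345) and −11.0 kb (chr13:102549031-102549231) from the gene's start, and neither of them holds either core.

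Pik3r1 −11.0 kb, stronger in CAST: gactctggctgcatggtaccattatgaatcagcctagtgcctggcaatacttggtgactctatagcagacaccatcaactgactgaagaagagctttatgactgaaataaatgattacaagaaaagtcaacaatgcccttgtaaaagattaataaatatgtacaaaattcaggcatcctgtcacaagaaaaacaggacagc

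Pik3r1 +77.9 kb, B6 lists only: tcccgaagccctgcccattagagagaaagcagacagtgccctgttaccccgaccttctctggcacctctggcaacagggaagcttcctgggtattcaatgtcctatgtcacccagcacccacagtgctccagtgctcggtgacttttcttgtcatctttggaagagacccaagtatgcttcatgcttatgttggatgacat

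The lists were checked against the tissue and the sex in the labels. Of 6 hepatocyte marker genes, 5 had a DHS within 1 kb of a start in males of either strain and 4 in females. Of 4 endothelial markers, 4 had one in B6 males, 3 in B6 females, 2 in CAST males and 1 in CAST females, and none of 4 Kupffer cell or 3 blood cell markers had one in any list. Bile duct markers had 2, 1, 2 and 1 of 4, and stellate cell markers 1, 1, 1 and 0 of 4, in the same order of lists. Their part in the results below was not tested, and in tissue a DHS in few cells and a weak DHS in all cells cannot be told apart. The Y-linked genes Kdm5d, Eif2s3y, Uty and Ddx3y had a promoter DHS in B6 males alone, but peaks on the Y chromosome numbered 53 in B6 males, 15 in B6 females and 0 in both CAST lists. Xist, which is transcribed from the inactive X of females, had a promoter DHS in B6 females alone and none in CAST females. The sex of the CAST lists could therefore not be checked, and the check in B6 was not clean. The lists held 24888 to 39562 peaks. Depth was recovered from the deposited values as the number of overlapping fragments at the genome-wide background, 15.4 in B6 males, 13.9 in B6 females, 14.3 in CAST males and 7.94 in CAST females.

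The number of DHS regions differed widely between the genes. Insr and Pik3r1 each had 14 and Foxo3 had 13, against a median of 2 over 22238 protein-coding genes counted the same way. Igfbp2 had 8, Irs1 had 7, Foxo1 and Igfbp1 had 5 each, and Irs2, Akt2 and Ppp1r3b had 4 each. Long genes have wider windows. Per 100 kb of window the order changed, with 11.8 regions at Igfbp2, 11.2 at Igfbp1, 10.98 at Pik3r1, 9.64 at Foxo3 and 8.30 at Insr, and the lowest density at Foxo1 (4.11), against a median of 3.25 over all genes. By list there were 63 regions in B6 males (80.8%), 43 in B6 females (55.1%), 69 in CAST males (88.5%) and 51 in CAST females (65.4%), compared with 74.6%, 50%, 76.2% and 47.3% of all regions. The male list held more regions than the female list of its strain at each gene except Irs2 and Igfbp1 in CAST, where the sexes had 4 each, and Ppp1r3b, where female B6 had 4 and male B6 had 3 and both CAST lists had 4.

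**Figure D1:**
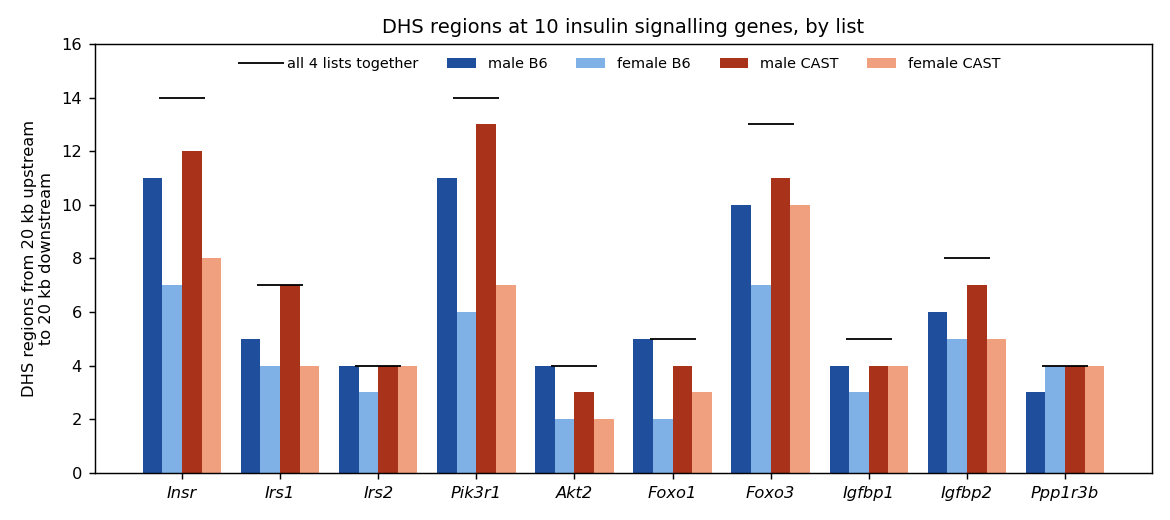
Number of DHS regions (y axis) at each of the 10 genes (x axis), as bars for the 4 pooled lists, with a black line at the number in all lists joined. Pik3r1 shows the widest gap between the sexes, 11 regions in B6 males and 6 in B6 females, and 13 in CAST males and 7 in CAST females.

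Of the 78 regions, 35 (44.9%) were found in all 4 lists, compared with 35.6% of all regions. Another 16 (20.5%) were in 3 lists, compared with 12.1% of all regions, 11 (14.1%) in 2, compared with 17.2%, and 16 (20.5%) in 1 list, compared with 35.2%. Of the last, 9 (11.5% of the 78) were in CAST males, 5 (6.41%) in B6 males, 2 (2.56%) in CAST females and 0 in B6 females, compared with 15.2%, 14.2%, 2.54% and 3.13% of all regions. The 95% binomial interval of the share in all 4 lists, 33.6% to 56.6%, holds the share of all regions. Binomial intervals here and below treat regions as independent draws, although they cluster at 10 genes, so they are no test. With peaks kept only at a −log10 q of at least 15.7, 18 of 56 (32.1%) were in all 4 lists, compared with 34.1% of all regions. By place, 46 of the 78 summits lay in introns, 19 upstream and 7 downstream of the gene, 5 in untranslated or non-coding exons and 1 in a coding exon. The start site nearest to the region was the gene's own in 58 regions and that of another gene in 20.

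Each gene had a promoter region that all lists shared. A region within 2.5 kb of a start site of the gene was in all 4 lists for all 10 genes, compared with 34 of the 44 further pathway genes described below. Of 19 such regions at the 10 genes 14 (73.7%) were in all 4 lists, compared with 21 of 59 distal regions (35.6%). Over all regions, 63.4% of those within 2.5 kb of a protein-coding start and 24.4% of the others were in all 4 lists. Scores were higher at regions that more lists held. A list holds only peaks past a q-value limit, so part of this relation is built in by the calling. The median −log10 q, taken over the lists that held a region, was 5.68 for regions in 1 list, 10.5 for 2 lists, 11.8 for 3 and 37.5 for 4. Promoter regions had a median of 36.7 and distal regions of 13.7. Windows at promoter summits were also richer in G and C, with a median of 58.2% against 47.8% in distal windows and 49.3% over all regions. The summits of the 35 regions in all 4 lists lay within a median of 90 bp of each other, compared with 91 bp over all such regions.

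**Figure D2:**
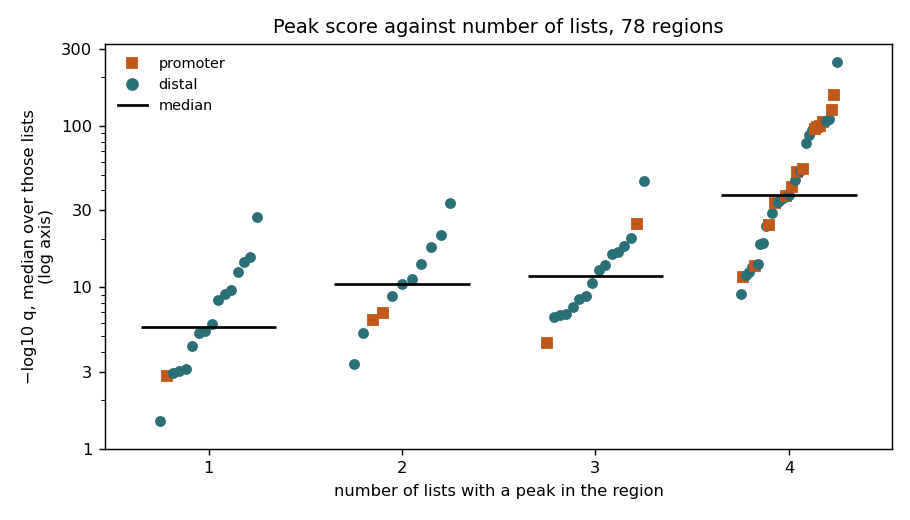
Score of each of the 78 regions (−log10 q, median over the lists with a peak, log axis) against the number of lists with a peak, with promoter regions as squares, distal regions as circles and the median of each column as a bar. The medians lie at 5.68, 10.5, 11.8 and 37.5 from 1 to 4 lists, and the highest point is the distal Ppp1r3b +30.7 kb DHS at 249.5.

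Signal at each DHS was compared as fold enrichment, the deposited ratio of the summit pileup to the local background. The local background differed between regions and between lists, so that ratios of fold enrichment are not ratios of pileup. The median over the regions present was 4.02 in B6 males, 3.39 in B6 females, 3.74 in CAST males and 3.70 in CAST females, compared with 3.50, 3.31, 3.75 and 4.10 over all regions. Peak widths had medians of 685, 612, 620 and 556 bp, and of 598, 557, 590 and 535 bp over all regions.

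**Figure D3:**
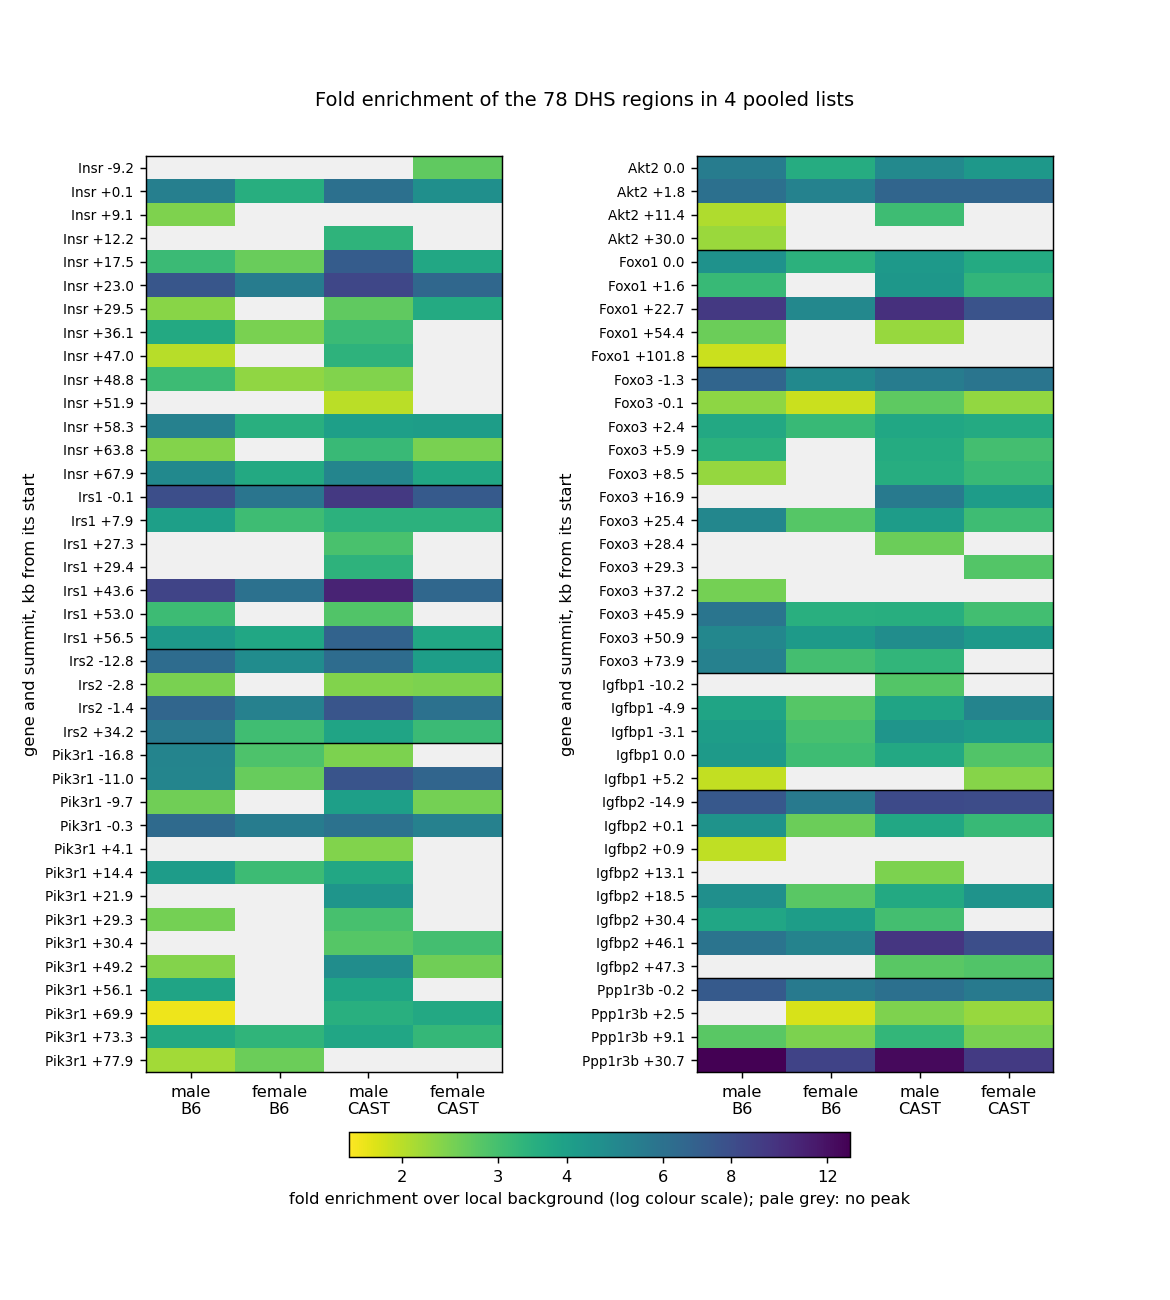
Fold enrichment over the local background (colour, log scale) of each of the 78 regions in the 4 pooled lists (columns), with rows grouped by gene and labelled with the distance of the summit from the gene's start in kb, and pale grey for no peak. Each gene has at least 1 promoter row filled in all 4 columns, the darkest row is Ppp1r3b +30.7 kb at 8.64 to 13.1, and gaps are most frequent in the female B6 column.

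At Insr, the receptor gene, the promoter DHS (chr8:3278405-3279932, overlapping a coding exon) had a fold enrichment of 5.31 in B6 males (95% counting interval 4.55 to 6.16), 3.51 in B6 females (2.80 to 4.35), 6.08 in CAST males (5.16 to 7.10) and 4.60 in CAST females (3.50 to 5.95). Each male value was above the female value of its strain. Divided by the median ratio over all shared regions, the male to female ratio was 1.15 in B6 (0.877 to 1.51) and 1.11 in CAST (0.812 to 1.53), and both intervals hold 1. The strongest distal DHS lay in an intron at +23.0 kb (chr8:3256122-3257021), with 7.51 in B6 males, 5.42 in B6 females, 8.41 in CAST males and 6.55 in CAST females, and its window held 1 forkhead core. An intronic DHS at +17.5 kb (chr8:3261939-3262546) stood out, with 7.14 in CAST males, compared with 3.12 in B6 males, 2.60 in B6 females and 3.71 in CAST females. All 14 Insr regions lay between −9.2 and +67.9 kb, 12 of them in introns.

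Both adaptor genes had strong promoter DHS. At Irs1 (chr1:82287377-82288454) fold enrichment was 7.94 in B6 males, 5.81 in B6 females, 9.27 in CAST males and 7.25 in CAST females. At Irs2 (chr8:11008708-11010156, summit at −1.4 kb, within the lincRNA gene 9530052E02Rik) it was 6.57, 5.23, 7.57 and 5.99 in the same order. In both genes the order of the lists was male CAST, male B6, female CAST and female B6. The Irs1 intronic DHS at +43.6 kb (chr1:82243951-82244679) had a higher fold enrichment than the promoter in each list except female CAST, with 8.59 in B6 males and 10.7 in CAST males, compared with 6.00 in B6 females and 6.54 in CAST females. Of the 7 Irs1 regions, 2 weak intronic ones at +27.3 and +29.4 kb were in CAST males alone, with 2.94 and 3.36. At Irs2 the 4 regions included an upstream DHS at −12.8 kb (chr8:11020835-11021786), with 6.25 in B6 males, 4.71 in B6 females, 6.24 in CAST males and 4.05 in CAST females.

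Pik3r1, which encodes a regulatory subunit of PI3-kinase, had 14 regions, of which 3 were in all 4 lists, compared with 35 of the 78 at the 10 genes and 35.6% of all regions. One of these was the promoter (chr13:102537723-102538837), with 6.38 in B6 males, 5.44 in B6 females, 5.98 in CAST males and 5.21 in CAST females. A DHS at +73.3 kb (chr13:102463982-102465202), at an internal start site of the gene, had 3.67, 3.31, 3.78 and 3.23 in the same order. The upstream DHS at −11.0 kb (chr13:102548755-102549454) had 5.05 in B6 males (4.18 to 6.06), 2.61 in B6 females (1.87 to 3.56), 7.64 in CAST males (6.64 to 8.74) and 6.62 in CAST females (5.20 to 8.32). Both CAST values were above both B6 values, and the counting intervals of the strains did not overlap within either sex. A second upstream DHS at −16.8 kb (chr13:102554729-102555380) had the opposite order, with 5.08 in B6 males and 2.88 in B6 females, compared with 2.43 in CAST males and no peak in CAST females.

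Akt2, the main insulin-responsive AKT kinase of hepatocytes, had a pair of DHS at its start in all 4 lists. The stronger one (chr7:28377466-28378766, summit at +1.8 kb) had 6.05 in B6 males, 5.17 in B6 females, 6.61 in CAST males and 6.65 in CAST females. The other (chr7:28376268-28377370, summit 29 bp before the start) had 5.44, 3.59, 4.90 and 4.28. Beyond these, female lists had no Akt2 DHS, while an intronic DHS at +11.4 kb was in both male lists and one at +30 kb (chr7:28406481-28406712) was in B6 males alone, with 2.2.

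The FOXO genes differed in how their DHS were spread. At Foxo1 the promoter DHS (chr3:52071740-52072984) had 4.48 in B6 males, 3.39 in B6 females, 4.26 in CAST males and 3.64 in CAST females. The intronic DHS at +22.7 kb (chr3:52094626-52095360) was stronger in all 4 lists, with 9.33 in B6 males, 4.92 in B6 females, 9.88 in CAST males and 7.72 in CAST females. At Foxo3 the strongest promoter-proximal DHS had its summit at −1.3 kb (chr10:41997191-41998082), with 6.63 in B6 males, 4.83 in B6 females, 5.44 in CAST males and 5.82 in CAST females. Here the female value was above the male value in CAST. Foxo3 had 11 regions within the gene, and the distal one with the highest median score over the lists that held it, at +5.9 kb (chr10:41990404-41990862), had 3.43 in B6 males, 3.60 in CAST males, 3.0 in CAST females and no peak in B6 females.

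The secreted binding proteins had moderate promoter DHS. At Igfbp1 (chr11:7097324-7098156, summit 38 bp before the start, overlapping a coding exon) fold enrichment was 4.18 in B6 males (3.70 to 4.70), 3.08 in B6 females (2.57 to 3.67), 3.68 in CAST males (3.19 to 4.23) and 2.84 in CAST females (2.22 to 3.59). A further pair of upstream DHS in all 4 lists lay at −3.1 kb (chr11:7094346-7095155) and −4.9 kb (chr11:7092541-7093247). The first had 4.07 in B6 males, 2.95 in B6 females, 4.40 in CAST males and 4.15 in CAST females. The second had 3.86, 2.78, 3.84 and 5.11, so that female CAST was the highest list there and female B6 the lowest. At Igfbp2 the promoter DHS (chr1:72870489-72871464) had 4.46 in B6 males, 2.57 in B6 females, 3.73 in CAST males and 3.19 in CAST females, and the upstream DHS at −14.9 kb (chr1:72855780-72857057) was stronger in every list, with 7.40, 5.56, 8.24 and 8.10. The DHS at +46.1 and +47.3 kb of Igfbp2 lie inside the neighbouring gene Igfbp5.

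Ppp1r3b, whose product directs a phosphatase to glycogen, had 4 regions. Its promoter DHS (chr8:36437932-36439869) had 7.24 in B6 males, 5.56 in B6 females, 6.08 in CAST males and 5.53 in CAST females. The DHS at +30.7 kb (chr8:36468910-36469933), downstream of the gene and with no other start site nearer than its own, had 13.1 in B6 males (12.1 to 14.2), 8.64 in B6 females (7.56 to 9.84), 12.5 in CAST males (11.5 to 13.6) and 9.20 in CAST females (7.83 to 10.7). It stood at percentile 99.2, 97.0, 98.6 and 95.2 of these lists by −log10 q. Its male values were alike in the strains and both were above the female values, with counting intervals that did not overlap. Divided by the median ratio over all shared regions, its male to female ratio was 1.15 in B6 (0.988 to 1.35) and 1.14 in CAST (0.957 to 1.37), and both intervals hold 1.

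**Figure D4:**
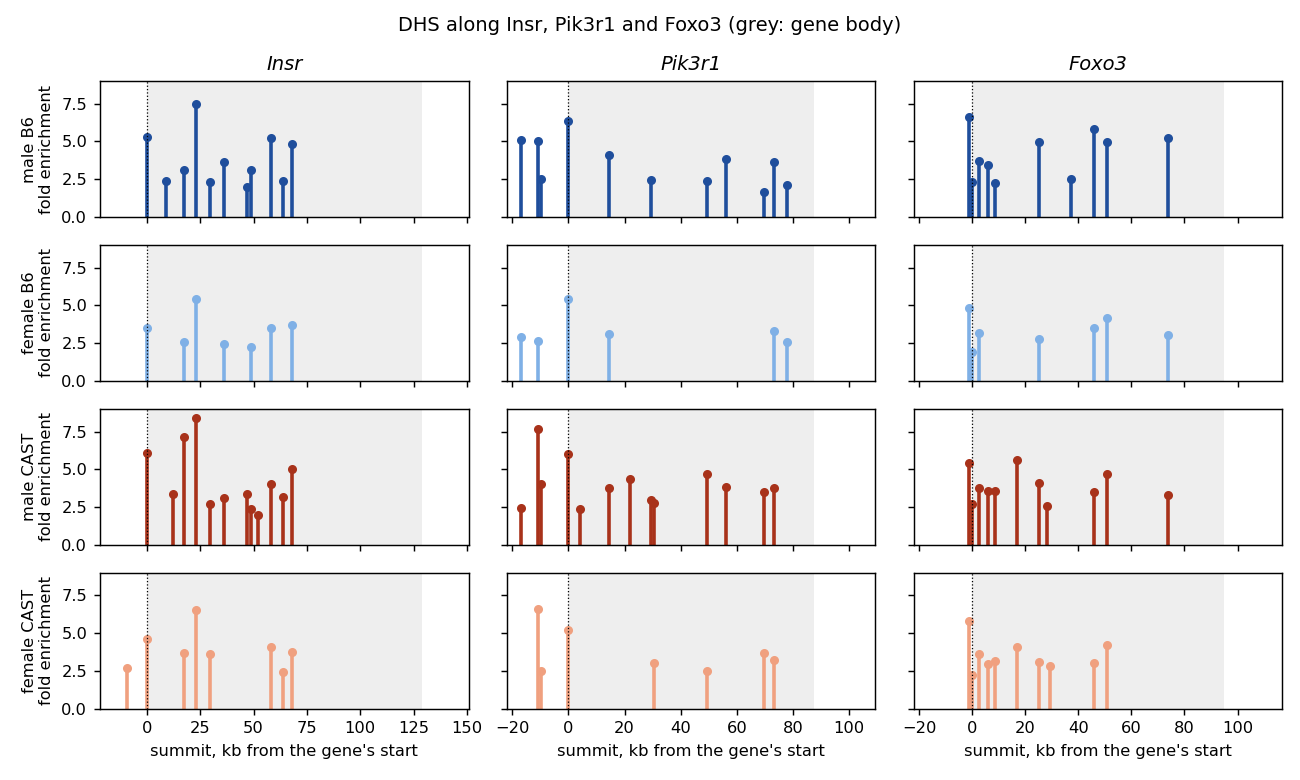
Fold enrichment (y axis) of each DHS along Insr, Pik3r1 and Foxo3 against the distance of its summit from the gene's start in kb (x axis), with a row for each of the 4 pooled lists and the gene body in grey. The Pik3r1 DHS at −11.0 kb reaches 7.64 in CAST males and 2.61 in B6 females, and the Foxo3 DHS at +16.9 kb appears in both CAST rows and in neither B6 row.

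The first comparison of the design, between males and females of a strain, was made on presence. In B6, 21 of 64 regions (32.8%) were in the male list and not in the female list, compared with 36.4% of all regions, and 1 (1.56%) was in the female list alone, compared with 5.13%. In CAST, 21 of 72 (29.2%) were in the male list alone, compared with 40.3%, and 3 (4.17%) in the female list alone, compared with 3.90%. The binomial intervals of the male-only shares, 21.6% to 45.7% in B6 and 19% to 41.1% in CAST, hold the shares of all regions. In CAST the interval did not with an overlap of 50% of both peaks (30.7%, 20.5% to 42.4%, compared with 43%). Nor did it with a window of 50 kb (29.2%, 20.3% to 39.3%, compared with 40.3%). The shares moved with the settings. With lists of equal size, 5 of 48 regions (10.4%) were male-only in B6, compared with 14.3% of all regions, and 11 of 62 (17.7%) in CAST, compared with 14.9%. With the stricter score limit 30 of 50 (60.0%) were male-only in CAST, compared with 50.9%. Of the 21 male-only regions in B6, 13 were predicted to pass the weakest p-value of the female list at the fold enrichment that the median sex ratio gives. The other 8 were too weak in the male list for their absence in females to count. In CAST, 17 of 21 would have passed. Over all male-only regions 56.1% would have passed in B6 and 58.5% in CAST. The prediction is a single value without counting error, and some regions lay close to the limit. In B6, Foxo3 +37.2 kb had an expected −log10 p of 3.67 and Insr +29.5 kb of 3.73, against a weakest of 3.56.

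Regions with the same sex pattern in both strains were few. In both male lists and neither female list there were 6 (7.69%, compared with 9.38% of all regions), and in both female lists and neither male list 0 of 78, compared with 0.0622%. The 6 were Pik3r1 +56.1 kb, Irs1 +53.0 kb, Pik3r1 +29.3 kb, Insr +47.0 kb, Akt2 +11.4 kb and Foxo1 +54.4 kb, all in introns, with Akt2 +11.4 kb 2495 bp from another start of that gene. The strongest was Pik3r1 +56.1 kb, with a fold enrichment of 3.83 in B6 males (3.07 to 4.74) and 3.82 in CAST males (3.02 to 4.76). Irs1 +53.0 kb (chr1:82234824-82235202) had 3.11 and 2.83, and Pik3r1 +29.3 kb (chr13:102508676-102509174) had 2.48 and 2.97. These 3 would have passed in both female lists at the predicted level. The other three would not have passed in at least 1 female list. Insr +47.0 kb (chr8:3232490-3233033) had 2.00 and 3.36, Akt2 +11.4 kb (chr7:28387710-28388321) 2.05 and 3.09, and Foxo1 +54.4 kb (chr3:52126254-52127399) 2.56 and 2.22.

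Female B6 held the fewest of the 78 regions, whereas over all regions female CAST held the fewest, and which female list held fewer of the members turned with the score limit. All lists but female B6 held 9 regions (11.5%), compared with 4.73% of all regions, and all lists but female CAST held 6 (7.69%), compared with 6.85%. With the stricter limit, of 56 regions, female B6 held 27 and female CAST 20, and only 1 region was missing from female B6 alone (5.92% of all regions) and 7 from female CAST alone (7.93%). With lists of equal size each was the case for 3 of 66 regions (3.08% and 3.76% of all regions). The 9 missing from female B6 alone were Insr +29.5 and +63.8 kb, Irs2 −2.8 kb, Pik3r1 −9.7, +49.2 and +69.9 kb, Foxo1 +1.6 kb and Foxo3 +5.9 and +8.5 kb. No region was missing from male CAST alone (0.2% of all regions), and 1 (1.28%, compared with 0.305%) was missing from male B6 alone. This was Ppp1r3b +2.5 kb (chr8:36441107-36441780), with 1.82 in B6 females, 2.40 in CAST males and 2.22 in CAST females, all at the weak end of the values.

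Presence was then compared between B6 and CAST of the same sex. Among males, 7 of 76 regions (9.21%) were in B6 and not in CAST, compared with 19.1% of all regions, and 13 (17.1%) were in CAST and not in B6, compared with 20.9%. In females, 7 of 58 (12.1%) were in B6 alone, compared with 22.6%, and 15 (25.9%) in CAST alone, compared with 18.3%. Binomial intervals treat regions at the same gene as independent draws and are no test. The binomial interval of the male B6 share, 3.78% to 18.1%, does not hold the share of all regions, and the intervals of the other three do (9.43% to 27.5%, 4.99% to 23.3% and 15.3% to 39%). That did not hold at every setting. The interval held the share of all regions at the stricter limit (10.7%, 4.03% to 21.9%, compared with 13.4%), with a window of 50 kb (14.7%, 8.63% to 22.7%, compared with 19.1%) and with an overlap of 50% of both peaks (15.5%, 8.51% to 25%, compared with 23.1%). With lists of equal size it did not (5%, 1.04% to 13.9%, compared with 16.1%). Nor did it with a window of 5 kb (9.23%, 3.46% to 19%, compared with 19.1%) or with depth-scaled lists (5.56%, 1.53% to 13.6%, compared with 17%). The order in females depended on the score limit. With the stricter limit 9 of 29 regions (31.0%) were in B6 females alone, compared with 18.3% of all regions, and 2 (6.90%) in CAST females alone, compared with 16%.

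Both B6 lists and neither CAST list held 1 region (1.28%), compared with 3.32% of all regions, and both CAST lists and neither B6 list held 3 (3.85%), compared with 3.62%. The B6-only region was Pik3r1 +77.9 kb (chr13:102460122-102460471, over a coding exon and within the overlapping gene Gm11016), with a fold enrichment of 2.14 in males (1.64 to 2.75) and 2.57 in females (1.95 to 3.34). Of the CAST-only regions, Foxo3 +16.9 kb (chr10:41979416-41979933, intronic) was the strongest, with 5.60 in males (4.69 to 6.63) and 4.12 in females (3.09 to 5.37), and summits only 6 bp apart. In the male CAST list it stood at percentile 72.8. Pik3r1 +30.4 kb (chr13:102507547-102507891) had 2.78 and 3.01, and Igfbp2 +47.3 kb (chr1:72918272-72918739, in Igfbp5) had 2.75 and 2.84. All 4 would have passed in both lists of the other strain at the predicted level. So would 99.1% to 100% of all regions found in 1 strain only, by comparison, so that passing does not set these 4 apart.

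The size of the signal was compared at regions found in both lists. Over all shared regions the male value was 1.32 times the female value at the median in B6 and 1.19 times in CAST, and the B6 value was 0.947 times the CAST value in males and 0.842 times in females. Ratios were therefore divided by that median, and are called relative below. As deposited, the male value was the higher one in 40 of 42 shared regions at the insulin signalling genes in B6 and in 37 of 48 in CAST. Relative to all regions, it was higher in 27 of 42 and 22 of 48. The median relative log2 ratios were 0.05 for sex in B6, −0.02 for sex in CAST, 0.05 for strain in males and 0.04 for strain in females, close to the 0 of all regions.

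Past a relative ratio of 1.5 between the sexes in B6 there were 0 of 42 regions higher in males, compared with 2.62% of all regions, and 1 (2.38%) higher in females, compared with 2.60%. This was Pik3r1 +77.9 kb, with a relative male to female ratio of 0.630 (0.429 to 0.927). Without division by the median, 12 of 42 (28.6%) were past 1.5-fold in males, compared with 24.3% of all regions. In CAST, 3 of 48 (6.25%) were higher in males, compared with 3.31%, and 2 (4.17%) in females, compared with 2.56%. The male-higher ones were Insr +17.5 kb at 1.62 (1.12 to 2.39), Pik3r1 +49.2 kb at 1.56 (1.03 to 2.44) and Irs1 +56.5 kb at 1.51 (1.11 to 2.09). The female-higher ones were Insr +29.5 kb at 0.623 (0.406 to 0.967) and Igfbp1 −4.9 kb at 0.631 (0.498 to 0.802). At a limit of 2-fold none of these 6 remained, compared with 0.0338% to 0.255% of all regions past it in the 4 directions.

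Between the strains, in males, 4 of 56 regions (7.14%) were past 1.5-fold in B6, compared with 4.49%, and 7 (12.5%) in CAST, compared with 6.68%. Those higher in B6 were Pik3r1 −16.8 kb at a relative B6 to CAST ratio of 2.21 (1.48 to 3.36), Foxo3 +45.9 kb at 1.74, Foxo3 +73.9 kb at 1.68 (1.24 to 2.30) and Irs2 +34.2 kb at 1.54 (1.13 to 2.11). For Foxo3 +45.9 kb the deposited values in B6 males gave no whole pileup, so its fold enrichment of 5.80 carries no interval and stands beside a low −log10 q of 8.16. Those higher in CAST were Insr +17.5 kb at 0.461 (0.343 to 0.616), Pik3r1 +69.9 kb at 0.509 (0.364 to 0.702), Pik3r1 +49.2 kb at 0.531 (0.387 to 0.722), Insr +47.0 kb at 0.628, Igfbp2 +46.1 kb at 0.653, Irs1 +56.5 kb at 0.658 and Foxo3 +8.5 kb at 0.665. In females 0 of 36 regions were past 1.5-fold in B6, compared with 3.42%, and 2 (5.56%) in CAST, compared with 4.97%. These were Pik3r1 −11.0 kb at 0.468 (0.308 to 0.703) and Igfbp1 −4.9 kb at 0.646 (0.492 to 0.848). At 2-fold, Pik3r1 −16.8 kb remained in B6 males (1 of 56 regions, compared with 0.801% of all regions), Insr +17.5 kb in CAST males (1 of 56, compared with 1.51%) and Pik3r1 −11.0 kb in CAST females (1 of 36, compared with 0.785%).

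No region at these genes was past 1.5-fold in the same direction in both strains or both sexes, among the 35 in all 4 lists. The count was 0 for male over female in both strains (0.426% of all such regions), 0 for female over male (0.0874%), 0 for B6 over CAST in both sexes (0.863%) and 0 for CAST over B6 (2.18%). The nearest was Pik3r1 −11.0 kb, with a relative B6 to CAST ratio of 0.698 in males (0.551 to 0.881) and 0.468 in females, both intervals below 1. Igfbp2 +46.1 kb, in Igfbp5, had 0.653 in males (0.543 to 0.783) and 0.767 in females (0.599 to 0.979). In the other direction, Foxo3 +45.9 kb had 1.74 in males, without an interval, and 1.37 in females (0.926 to 2.05). The sex ratio of Ppp1r3b +30.7 kb, the strongest region, was 1.15 in B6 (0.988 to 1.35) and 1.14 in CAST (0.957 to 1.37), so that its higher male signal was close to that of all regions. Of the highest-scoring promoter DHS of each gene, 10 in all, none was past 1.5-fold in any of the 4 comparisons, with relative log2 ratios from −0.35 to 0.39. Over all shared regions 2.56% to 6.68% were past it in each direction of a comparison, so that none among 10 does not set these promoters apart. Among the 19 regions within 2.5 kb of a start, Pik3r1 +77.9 kb was past 1.5-fold between the sexes in B6, as given above.

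**Figure D5:**
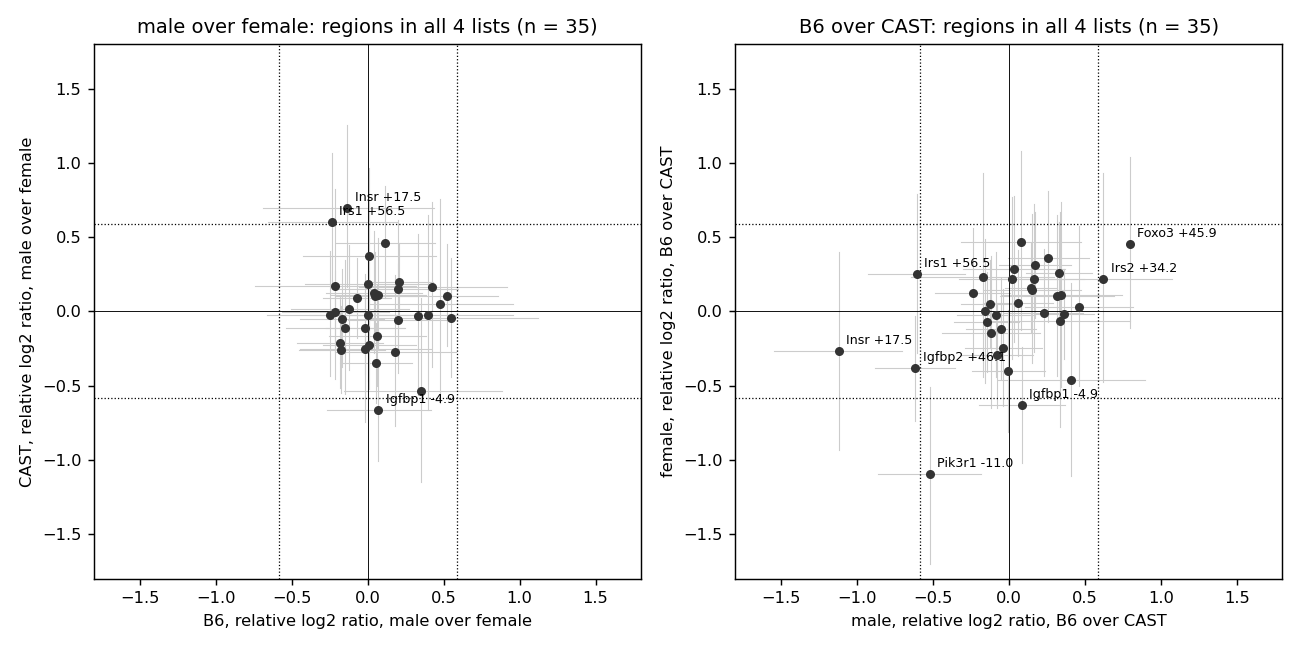
Relative log2 ratio of fold enrichment at the 35 regions in all 4 lists, male over female in CAST against B6 (left) and B6 over CAST in females against males (right), with grey lines for 95% counting intervals and dotted lines at 1.5-fold. No point lies beyond 1.5-fold on both axes, and the point farthest down on the right is Pik3r1 −11.0 kb at −1.09 in females and −0.52 in males.

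Short motifs were counted in windows reaching 100 bp to either side of the summits, on both strands. None of the motifs contains another. The insulin response core CAAAACA was in 10 of 78 windows (12.8%), compared with 6.29% of all regions, and the forkhead core TGTTTAC in 6 (7.69%), compared with 4.49%. Of the 10, 3 were at Insr, 3 at Foxo3 and 2 at Igfbp1 (the promoter and −4.9 kb), with 1 each at Irs1 (the promoter) and Pik3r1 (+21.9 kb). Foxo3 +16.9 kb, one of the CAST-only DHS, was the window that held both cores. TTCNNNGAA, the form bound by STAT5, was in 9 windows (11.5%, compared with 7.0%), 4 of them at Pik3r1 and 3 at Foxo3. CCAAT, bound by NF-Y, was in 22 (28.2%, compared with 25.3%), GGGGCGGGG, bound by SP and KLF factors, in 3 (3.85%, compared with 3.45%), and ATCGAT, shared by HNF6 and CUX2, in 1 (1.28%, compared with 1.19%). The forms CAAAGTCCA (HNF4A), TTGCGCAA (CEBP), TGACGTCA (CREB) and TCACNCCAC (SREBP) were in 0 of 78 windows, and in 0.134% to 1.07% of all regions. A match is a description of the letters and not a binding site.

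The other genes of the pathway were counted in the same way. Around 44 further genes, from the IGF1 receptor to the other IGF binding proteins, there were 240 regions, besides 9 that fell in the windows of the 10 genes. Of the 240, 93 (38.8%) were in all 4 lists and 77 (32.1%) in 1 list, compared with 35.6% and 35.2% of all regions and 44.9% and 20.5% at the 10 genes. Irs4 and Ppp1r3a, the muscle relative of Ppp1r3b, had none, and 34 of the 44 had a promoter region in all 4 lists. Of the 240, 31 (12.9%) were in both male lists alone (9.38% of all regions, 7.69% at the 10 genes), 0 in both female lists alone (0.0622% and 0%), 3 (1.25%) in both B6 lists alone (3.32% and 1.28%) and 6 (2.5%) in both CAST lists alone (3.62% and 3.85%). In the comparison of the sexes, 85 of 202 regions (42.1%) were in male B6 and not female B6, compared with 36.4% of all regions, and 74 of 192 (38.5%) in male CAST and not female CAST, compared with 40.3%. In the comparison of the strains in males, 41 of 230 (17.8%) were in B6 alone, compared with 19.1%, and 35 (15.2%) in CAST alone, compared with 20.9%. Akt1, a sister kinase of Akt2, had no promoter region in all 4 lists, whereas Gsk3a, Gys2 (liver glycogen synthase) and Rps6kb1 had each of their 4, 4 and 2 regions in all 4 lists.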

How the data were processed

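DNase-seq was performed on liver nuclei of 4 groups, with groups taken from the library titles. Per the labels and the methods, the authors aligned unique reads with Bowtie2, CAST reads to mm9 carrying CAST variants and then converted back to mm9, merged the libraries of a group and called peaks with MACS2, with blacklisted and duplicate-only peaks removed. Each deposited list gave per peak a fold enrichment (a ratio to the local background), −log10 p-value, −log10 q-value, a score and the summit. Peak names carried the identifier of 1 library per list, and pooling was taken from the labels.

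Summit pileup and local background were recovered from fold enrichment (pseudocount 1) and p-value. Pileups came out whole (within 0.02) for 99.9% to 99.96% of peaks by list. Exact Poisson and Clopper-Pearson 95% intervals followed, which cover counting error only. Binomial intervals of shares treat regions as independent draws. For 6 male B6 peaks and 1 male CAST peak the values gave no pileup above background. Genes came from the GENCODE annotation of mm9 (10 of 10 symbols matched, coordinates count from 1). Named regions were each gene's promoter and strongest distal DHS and those of 1 sex, 1 strain or past 1.5-fold. The other regions named were chosen after their values were seen. The members and lists were chosen with earlier results of these data known. Alternatives were another overlap, window, score limit, list size, depth, fold, centring and background. Steps were tested on simulated data. Python 3.11.15, numpy 2.4.6, scipy 1.17.1 and pandas 2.3.3 were used.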

Additional observations from a re-analysis of the deposited data

Results flagged for a closer look

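The region 5.2 kb from the start of Igfbp1 (chr11:7102902-7104037, downstream of the gene) joins a peak of one sex in B6 with a peak of the other sex in CAST. The summits of these peaks, 845 and 328 bp wide, lie 985 bp apart in a region of 1136 bp, so they overlap only at their edges. It was in male B6, with a −log10 q of 4.11 and a fold enrichment of 1.94, and in female CAST, with a −log10 q of 2.54 and a fold enrichment of 2.34, and it was in neither female B6 nor male CAST. Each group had 1 pooled list, and the difference between the strains was not tested. The male B6 value was too weak for a call in female B6 to be predicted, at an expected −log10 p of 2.26 against a weakest p of 3.56 in that list. The female CAST value predicted a call in male CAST, at 11.5 against 3.33.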

How the results depend on the processing

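The 17 shares of regions by pattern, list or fold were recomputed under the alternatives that bear on each, 10 in all, giving 110 values, of which 94 stayed within the 95% binomial interval of the share reported and 16 moved beyond it. An overlap of 50% of both peaks and windows of 5 or 50 kb moved none of the 17, depth-scaled lists none of the 9 shares by pattern or list, and the summit pileup over the genome-wide background none of the 8 by fold. The stricter score limit moved the share in all 4 lists to 32.1%, male CAST only to 60.0%, female CAST only to 0% of the sex comparison, female B6 only to 31.0% and female CAST only to 6.90% of the strain comparison. Lists of equal size moved male B6 only to 10.4% and male CAST only to 17.7%. A fold of 2 moved both sex shares in CAST and the female B6 share to 0%, and both strain shares in males to 1.79%. Without centring, male B6 past 1.5-fold rose to 28.6% and the female shares fell to 0% in both strains. Counting absences only where a call was predicted, an alternative chosen after seeing the data, moved male B6 only to 20.3%. The cause of these moves was not tested, except that the 2-fold limit and the missing centring act by construction. No replicate could be left out and no paired analysis was possible because the peak lists used here hold 1 pooled list per group. At the recovered backgrounds of 7.94 to 15.4 overlapping fragments and the median sex ratio, a female call was not predicted for 8 of 21 male-only regions in B6 and 4 of 21 in CAST.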
